A study of Mus musculus with 4 samples.

Results

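The genes described here belong to the p53 pathway: Trp53 itself, its inhibitor Mdm2, and the genes Cdkn1a, Gadd45a, Ccng1, Hic1, Trp53inp1, Trp53inp2, Bax and Ei24. All probes carrying one of these 10 gene symbols were taken, which gave 16 probes for 8 genes out of 25697 probes and 16593 genes on the array. No probe here carried the symbol of Trp53 or Bax, so these 2 members were not analysed here. The list was chosen on known membership of the pathway and on differences already seen between these same arrays, among them those of Hic1 and Cdkn1a. The differences of these genes are therefore given as a description, with no p-value. Where calls of the fit over all probes are counted for them, the count stands beside that of all probes and supports nothing.

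The cells were NIH-3T3, a fibroblast line that grew out of mouse embryos and is immortal in culture. One group had received microvesicles, small membrane-bound particles, purified from the medium of cultured cardiomyocytes. The other group held control fibroblasts, and the labels do not say what the controls were given in place of microvesicles. Each group had 2 arrays, all on 1 chip with the groups at different positions, so group and position cannot be told apart. Per the labels, cardiomyocytes and fibroblasts were both grown in Claycomb medium, a medium made for cardiomyocytes. Whether the 2 samples of a group came from separate cultures is not stated, so the spread between them may be technical.

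p53 is a transcription factor that is held at a low level by Mdm2, a ubiquitin ligase that marks it for destruction. DNA damage and other stresses free p53 from Mdm2, after which p53 binds pairs of short sequence elements, called half-sites, and switches on genes of growth arrest, DNA repair and cell death. Mdm2 is itself such a target, which closes a feedback loop. NIH-3T3 cells lack the Cdkn2a locus, whose Arf product restrains Mdm2, as many established mouse fibroblast lines do.

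The arrays were dim. The median raw signal, which is bead brightness averaged for each probe, was 39.9 and 40.2 on the microvesicle arrays and 41.1 and 41.2 on the control arrays. The 95th percentile was 75.1 and 59.6 on microvesicle replicates 1 and 2 and 76.2 and 115 on control replicates 1 and 2, so the second control array was brightest and the second microvesicle array dimmest in this range. A probe was called detected on an array where its detection p, from the negative controls of that array, was under 0.05. By this measure 3757 to 4875 probes were detected on the microvesicle arrays and 4385 to 5272 on the control arrays. Fibroblast markers were found in part. Vim, Col1a2, Col3a1, Thy1, Lum and Dcn were detected on all 4 arrays, while Col1a1, Pdgfra, Ddr2 and Fap were detected on none. Of 22 cardiomyocyte markers on the array, 15 were detected on no array, including Myh7, Actc1, Nppa and Tnni3. Tnnc1 was detected on all 4 arrays, and Des and Ldb3 were detected on neither microvesicle array and on both control arrays. None of these 3 kept markers passed (limma, Benjamini-Hochberg adjusted p from 0.286 to 0.961). Myh6, Myl4 and Nkx2-5, which were not kept, were each detected on 1 microvesicle array and on no control array. Mb, also not kept, was detected on 1 array of each group. The summed normalized signal of the list was 430.3 and 450.7 on the microvesicle arrays and 441.6 and 439.0 on the control arrays.

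Sequences near the start sites of these genes were read first, since they show where a p53 half-site lies. RefSeq windows of assembly GRCm38.p6, from 250 bases before to 50 bases after an annotated start, covered 9 of the 10 genes in 11 windows, with none for Trp53inp1. A p53 half-site, the consensus decamer with no mismatch allowed, was searched on both strands. It occurred in 7 of the 9 genes, Trp53, Mdm2, Cdkn1a, Gadd45a, Ccng1, Bax and Ei24. Over all 32851 windows, 8.36% held one, and over all 27025 genes, 9.55% did. No match was found in the windows of Hic1 (2 windows) and Trp53inp2. These genes were gathered as p53 targets, so the share with a match is a description, and a match is not evidence of binding. The stretches below are from the 5 measured genes with a match, 5′ to 3′ on the gene's strand, with the half-site in capitals and no base past the start site.

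Mdm2 (chr10:117710915-117710964, minus strand): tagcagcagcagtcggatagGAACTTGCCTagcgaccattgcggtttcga
Cdkn1a (chr17:29090886-29090957, plus strand): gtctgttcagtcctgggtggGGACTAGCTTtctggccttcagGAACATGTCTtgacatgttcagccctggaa
Gadd45a (chr6:67037418-67037467, minus strand): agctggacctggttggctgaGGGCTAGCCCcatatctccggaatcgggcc
Ccng1 (chr11:40755442-40755491, minus strand): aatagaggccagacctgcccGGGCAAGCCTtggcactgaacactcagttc
Ei24 (chr9:36797335-36797364, minus strand): ccagctgccccgtgcggcccGGGCATGCCC

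Cdkn1a had 2 half-sites, at bases -73 to -64 and -51 to -42 from the start of its upstream transcript, and none in the window of its other start. These 2 are single exact matches and are not shown to form a pair. The bases tgacatgttc, which directly follow the second, differ from the consensus only at their first base. The search did not count half-sites with a mismatch. The half-site of Ei24 ended at the base before the start, that of Gadd45a lay at -40 to -31, and those of Mdm2 and Ccng1 lay at -186 to -177 and -185 to -176. All windows were also searched for the GC box GGGCGG on both strands, which 35.7% of them hold. Ei24 had 4, Bax 3, Mdm2 2, Cdkn1a 2 in the window of its other start and Gadd45a 1, while Trp53 and Ccng1 had none. The GC box therefore did not set Hic1 and Trp53inp2 apart. The windows of these 2 genes, whose signal was higher with microvesicles below, are shown with their GC boxes in capitals. For Hic1 the window is that of its upstream start.

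Hic1 (chr11:75170256-75170396, minus strand): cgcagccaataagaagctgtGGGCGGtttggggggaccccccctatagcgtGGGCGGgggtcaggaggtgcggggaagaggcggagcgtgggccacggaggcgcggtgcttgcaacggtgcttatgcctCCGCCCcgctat
Trp53inp2 (chr2:155381717-155381825, plus strand): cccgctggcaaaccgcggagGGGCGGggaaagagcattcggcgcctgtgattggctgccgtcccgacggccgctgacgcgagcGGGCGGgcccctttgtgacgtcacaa

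Hic1 had 2 GC boxes in its other window as well. Both genes lay in GC-rich windows, 64.7% and 77.3% G and C in those of Hic1 and 67.3% in that of Trp53inp2, against a median of 52.7% over all windows. Their windows held 20, 29 and 30 CpG pairs, against a median of 7. Mdm2, at 64.7%, equalled the lower Hic1 window in G and C and, at 35 CpG pairs, exceeded both genes, so CpG pairs did not set them apart. In G and C, the other Hic1 window and that of Trp53inp2 were the richest of the windows of these genes, with that of Ei24 next at 66.3%.

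Of the 16 probes, 6 were detected on no array. A probe was kept for comparison where both arrays of at least 1 group detected it, which held for 8 of the 16 probes and 6 of the 8 genes, against 14.6% of all probes. Trp53inp1 and Ei24 had no kept probe. Background-corrected signals were quantile normalized with an offset of 16 and put on the log2 scale, and the offset compresses the differences of dim probes. A log2 difference below is the mean of the 2 microvesicle arrays minus that of the 2 control arrays, with the standard error (SE) from limma. With 2 arrays a group, the smallest two-sided p of an exact permutation test is 0.333.

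**Figure D1:**
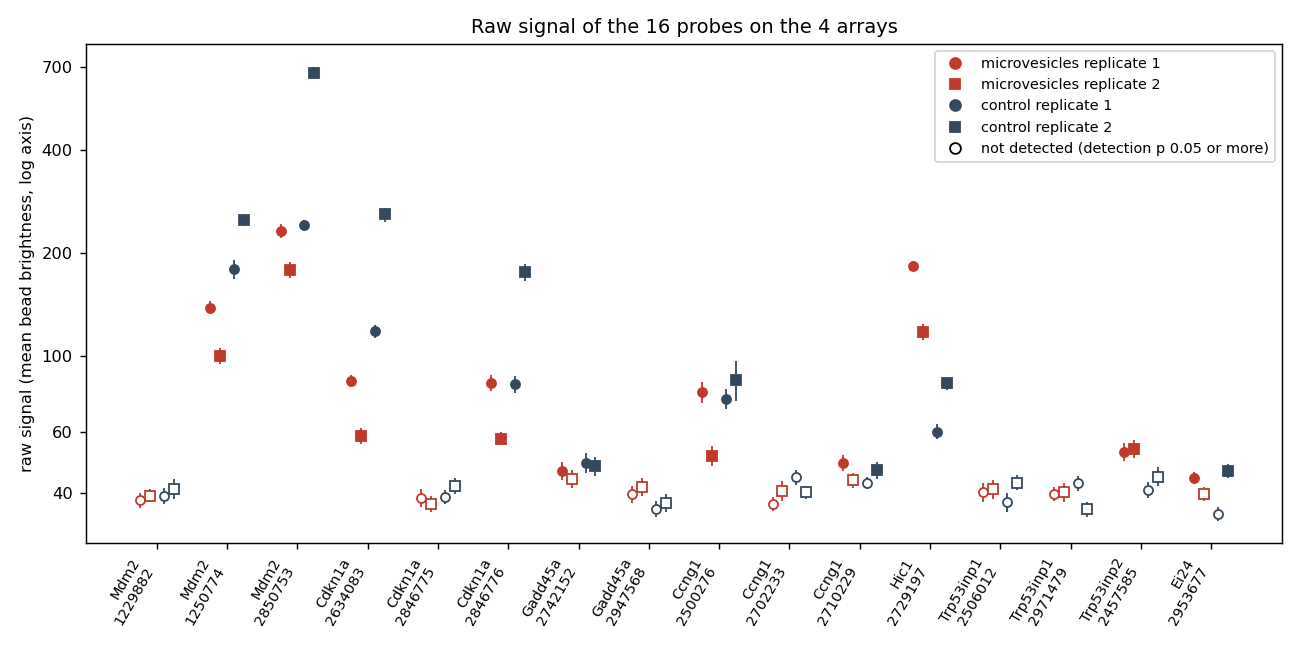
Raw signal (log axis, mean bead brightness ± bead standard error) of the 16 probes of 8 p53 pathway genes on each array, microvesicle arrays in red left of control arrays in dark blue, with open symbols where a probe was not detected. Hic1 was brighter on both microvesicle arrays (184.3 and 118.0) than on both control arrays (60.3 and 83.6), and the Cdkn1a probe ILMN_2634083 was dimmer (84.7 and 58.7 against 118.3 and 259.9).

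Hic1 showed the widest measured difference among these genes, higher with microvesicles. Cdkn1a was lower on 1 probe, and Trp53inp2 was higher by an amount that has only a lower bound, so these 2 are not ranked. Mdm2, Ccng1 and Gadd45a differed between groups by less than their SE. Over the 8 kept probes the log2 difference ran from -0.96 to 2.24 with a median of -0.07, beside a median of -0.06 over all 3762 kept probes and quartiles of -0.30 and 0.23. The fit over all probes called 3 of the 8 (limma, Benjamini-Hochberg adjusted p under 0.05), 2 higher (Hic1 and Trp53inp2) and 1 lower (Cdkn1a). Over all kept probes 7.55% were called, 3.43% higher and 4.12% lower. When kept-probe medians were aligned, 76 probes were called higher and 277 lower, against 129 and 155 in the reported fit. With the medians of all probes aligned 0 of the 8 were called, and with 1 array left out 0 to 1 were. Nothing is read from the count of these genes, since the genes were chosen with these differences known.

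**Figure D2:**
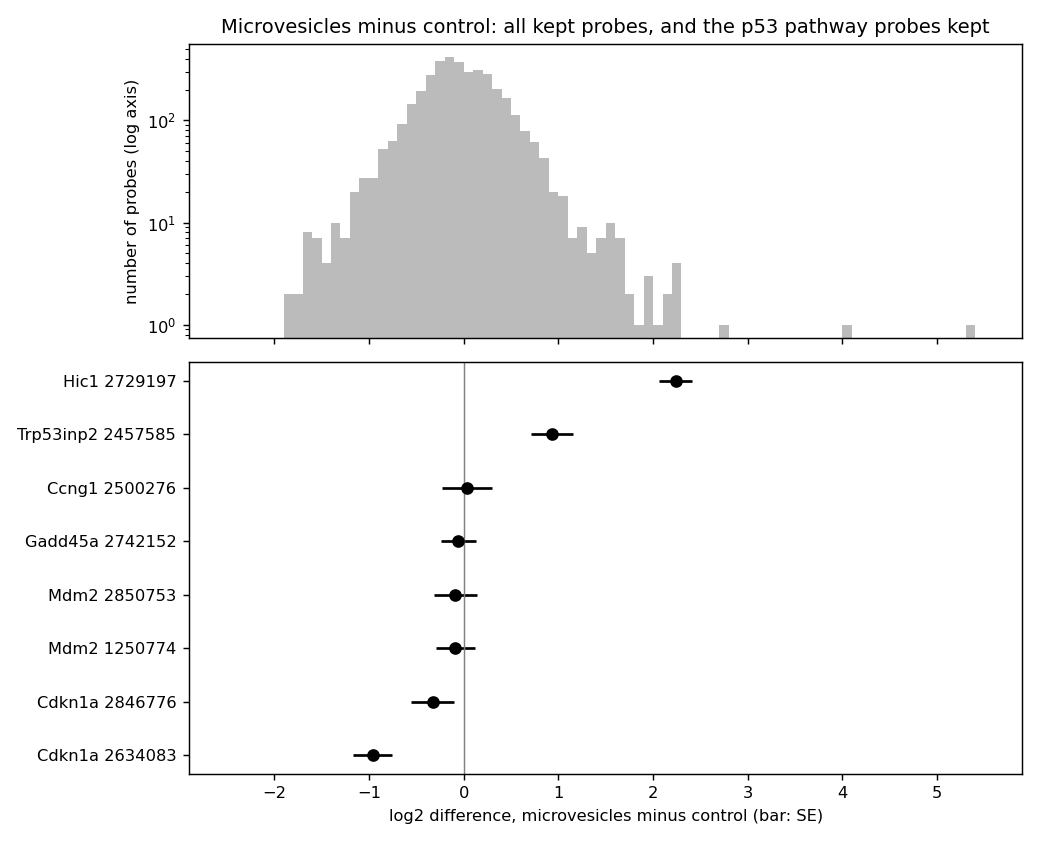
Top, number of kept probes (log axis) by log2 difference, microvesicles minus control, in steps of 0.1 for all 3762 kept probes. Bottom, the 8 kept probes of p53 pathway genes on the same axis with their SE, where Hic1 lies at 2.24, Trp53inp2 at 0.93, 4 probes within 0.10 of 0, and the 2 Cdkn1a probes at -0.33 and -0.96.

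Mdm2, the ubiquitin ligase that limits p53 and is also its target, was measured by 3 probes. ILMN_2850753 had raw signals of 233.1 and 178.8 on the microvesicle arrays and 241.9 and 674.4 on the control arrays. Control replicate 2 stood far above the other 3 arrays, and it was also the brightest array as a whole. After normalization the log2 signals were 7.97 and 8.26 with microvesicles and 7.94 and 8.46 in controls, so the groups overlapped (log2 difference -0.09, SE 0.23). The second probe, ILMN_1250774, gave raw signals of 138.9 and 100.5 with microvesicles and 180.0 and 250.8 in controls. Both raw values with microvesicles were lower, but the normalized groups overlapped, at 7.11 and 7.18 with microvesicles and 7.45 and 7.01 in controls (log2 difference -0.09, SE 0.20). In raw signal both probes were higher on control replicate 2 than on control replicate 1, while after normalization they put the control arrays in opposite order. When arrays were instead scaled to a common median over all probes, the 2 differences were -1.02 and -0.96, beside a median of -0.39 over the kept probes under that scaling. The third probe, ILMN_1229882, was detected on no array.

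Cdkn1a encodes p21, an inhibitor of cyclin-dependent kinases that carries out much of the growth arrest by p53. On ILMN_2634083 the raw signal was 84.7 and 58.7 on the microvesicle arrays, with bead standard errors of 3.32 and 3.04, and 118.3 and 259.9 on the control arrays, with bead standard errors of 5.44 and 12.2. The normalized log2 signals were 6.11 and 5.79 with microvesicles and 6.76 and 7.07 in controls. The groups did not overlap in raw or normalized signal. The means were 5.95 ± 0.23 with microvesicles and 6.92 ± 0.22 in controls (SD, n = 2 each), a log2 difference of -0.96 (SE 0.21), and each of the 4 pairs of arrays gave between -1.28 and -0.65. On the second kept probe, ILMN_2846776, the values were 6.09 and 5.73 with microvesicles and 6.01 and 6.47 in controls. These groups overlapped, with microvesicle replicate 1 above control replicate 1, and the log2 difference was -0.33 (SE 0.23). In raw signal the 2 probes were nearly alike on the microvesicle arrays, 84.7 and 58.7 against 83.8 and 57.5, and differed on the control arrays, 118.3 and 259.9 against 83.1 and 176.1. The third probe, ILMN_2846775, was detected on no array. Both kept probes were lower with microvesicles under every other scaling or background correction tried and with each array left out. The log2 differences ran from -1.66 to -0.72 for the first and from -1.04 to -0.09 for the second. Changes of probe filter, variance model or block leave a log2 difference as it is.

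Gadd45a, a stress-induced growth arrest gene, was close to the detection limit. ILMN_2742152 had raw signals of 46.3 and 44.0 with microvesicles and 48.9 and 47.8 in controls, and it was detected on 1 microvesicle array and both control arrays. The normalized signals, 4.55 and 4.42 with microvesicles and 4.62 and 4.46 in controls, overlapped (log2 difference -0.05, SE 0.18). The sign turned to 0.34 when kept-probe medians were aligned, which moved the median over all probes on the array to 0.44. Its other probe was not detected. Ccng1, which encodes cyclin G1, a target that feeds back on Mdm2 and p53, had 1 kept probe of 3. Its normalized signals were 5.97 and 5.29 with microvesicles and 5.82 and 5.37 in controls. The 2 microvesicle arrays lay on either side of both controls (log2 difference 0.03, SE 0.27), and the sign turned with either scaling by medians (-0.49 and -0.04). A second Ccng1 probe was detected on microvesicle replicate 1 and control replicate 2, and the third on no array.

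Hic1 encodes a zinc finger transcriptional repressor, a target of p53 in human cells and a tumour suppressor that is often silenced by methylation. Its 1 probe, ILMN_2729197, had raw signals of 184.3 and 118.0 with microvesicles and 60.3 and 83.6 in controls. The bead standard errors were 6.29 and 6.16 with microvesicles and 3.06 and 3.68 in controls, from 32 to 58 beads an array, so every raw gap between groups was several times the bead error. The probe stood at percentiles 98.5 and 98.3 of all probes on the microvesicle arrays and 93.1 and 93.3 on the control arrays. After normalization it was 7.62 and 7.47 with microvesicles and 5.28 and 5.33 in controls. The groups were far apart and each was tight, with means of 7.55 ± 0.11 with microvesicles and 5.31 ± 0.04 in controls (SD, n = 2 each). The log2 difference was 2.24 (SE 0.18), 4.72-fold, and rank 5 from the top of the 3762 kept probes. The 4 pairs of arrays gave 2.14 to 2.34. The size rested on scaling and background. It was 1.46 with the medians of all probes aligned, 1.72 without background correction and 1.91 when kept-probe medians were aligned, and leaving out 1 array gave 2.07 to 2.38.

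A ratio of 2 raw signals within 1 array does not depend on how arrays are scaled. The signal of Hic1 over that of Cdkn1a (ILMN_2634083) was 2.17 and 2.01 on the microvesicle arrays and 0.510 and 0.322 on the control arrays. Hic1 over Mdm2 (ILMN_1250774) was 1.33 and 1.17 on the microvesicle arrays and 0.335 and 0.333 on the control arrays. These raw signals include background, which draws ratios of dim probes towards 1. Hic1 and Cdkn1a were listed for differences already seen, so the direction of their ratio is a description and supports nothing, and a ratio does not show which of 2 genes changed.

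The Trp53inp genes encode 2 related proteins that shuttle from the nucleus to forming autophagosomes, and Trp53inp1 is the one named as a p53 target. Trp53inp2 was measured by ILMN_2457585, with raw signals of 52.7 and 53.8 with microvesicles and 40.7 and 44.6 in controls. It was detected on both microvesicle arrays and on neither control array, and it was kept through the group in which it was high. The normalized signals were 4.95 and 5.48 with microvesicles and 4.22 and 4.34 in controls, with means of 5.21 ± 0.38 and 4.28 ± 0.08 (SD, n = 2 each). The groups did not overlap, and the microvesicle arrays differed from each other by more than the controls did. Because the control level was below detection, only a bound can be given. Under the reported normalization this was at least 1.73-fold higher with microvesicles. Each control array was counted at its own signal or at the lowest detected signal, whichever was higher. The bound holds for that normalization only. The measured log2 difference of 0.93 (SE 0.22) ranged from 0.56 without background correction to 1.22 without microvesicles replicate 1. Trp53inp1 was detected on no array by either probe, with raw signals of 39.6 to 40.9 with microvesicles and 35.8 to 42.8 in controls. At this signal, an absent transcript and a scarce one look alike.

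Ei24, which encodes a protein of the endoplasmic reticulum linked to cell death and autophagy, had 1 probe, with raw signals of 44.2 and 39.6 with microvesicles and 34.7 and 46.3 in controls. It was just above the detection limit on 1 array of each group and was not kept. Over the 8 kept probes, normalized groups did not overlap for 3, Hic1, Trp53inp2 and Cdkn1a ILMN_2634083. Over all kept probes the groups did not overlap for 57.5%, 24.9% with the microvesicle arrays higher and 32.7% with them lower.

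**Figure D3:**
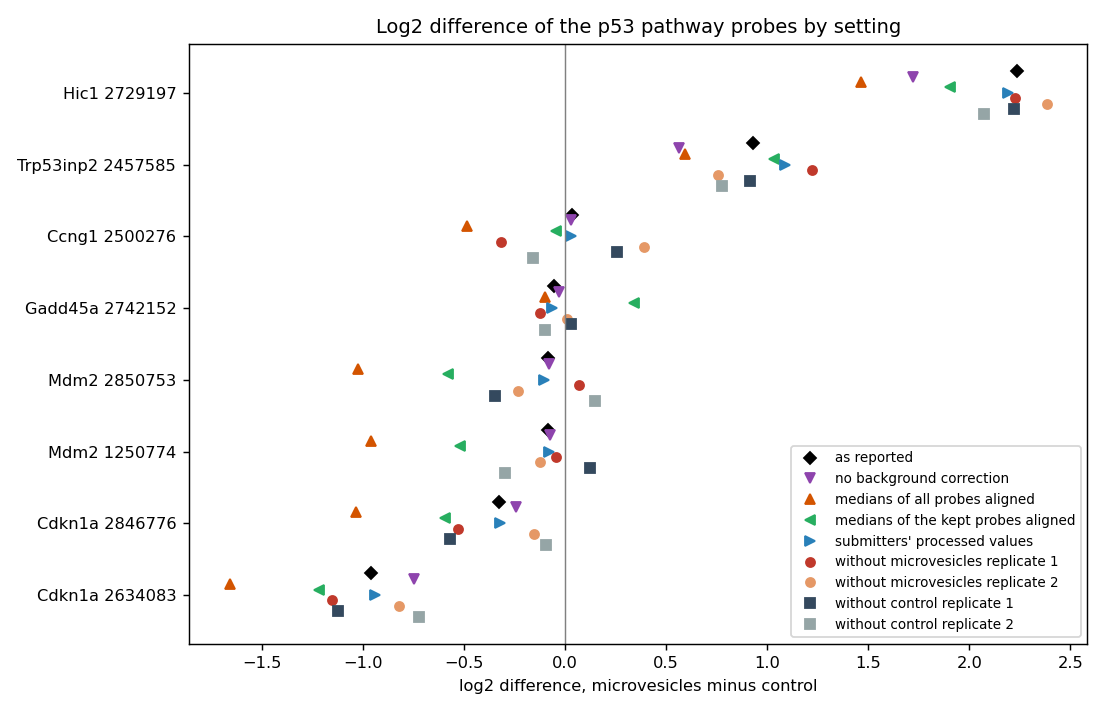
Log2 difference, microvesicles minus control, of the 8 kept probes under the reported setting (black diamonds), 4 other ways of scaling or background correction (triangles) and with each array left out (circles and squares). Hic1 stays between 1.46 and 2.38 and Cdkn1a ILMN_2634083 between -1.66 and -0.72, while Mdm2 lies near 0 in the reported setting and near -1 with the medians of all probes aligned.

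By their log2 profile over the 4 arrays, taken as deviations from each probe's own mean, the genes nearest to Hic1 were Cyb5r3, Tpm1 and Fdps, with root mean square log2 distances of 0.16, 0.17 and 0.18. Cyb5r3 had normalized signals of 7.67 and 7.46 with microvesicles and 5.18 and 5.66 in controls. Nearest to Cdkn1a ILMN_2634083 were Arhgef25, Dgat2 and Mov10, with distances of 0.05, 0.06 and 0.07. With 4 arrays in 2 groups, such likeness reflects little more than a group difference of the same size.

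Other genes of the pathway were taken as 8 lists, 164 genes in all, of which 141 were on the array and 40 were kept, with 1 probe for each gene. Of these 40, 4 were higher with microvesicles, 1 was lower and 35 did not pass (limma over all 3762 kept probes, adjusted p under 0.05), and 73 of the 141 were detected on no array. The shares, 10% higher and 2.5% lower, stand beside 3.43% and 4.12% of all kept probes, and the median log2 difference was 0.02, against -0.06. The lists were chosen with earlier results of these data known, so these shares are a description. No list gave more than 1 gene in a direction. None of the 5 genes passed with any 1 array left out (limma adjusted p from 0.0542 to 0.317) with the medians of all probes aligned (0.444 to 0.994) or with no detection filter (0.147 to 0.293).

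**Figure D4:**
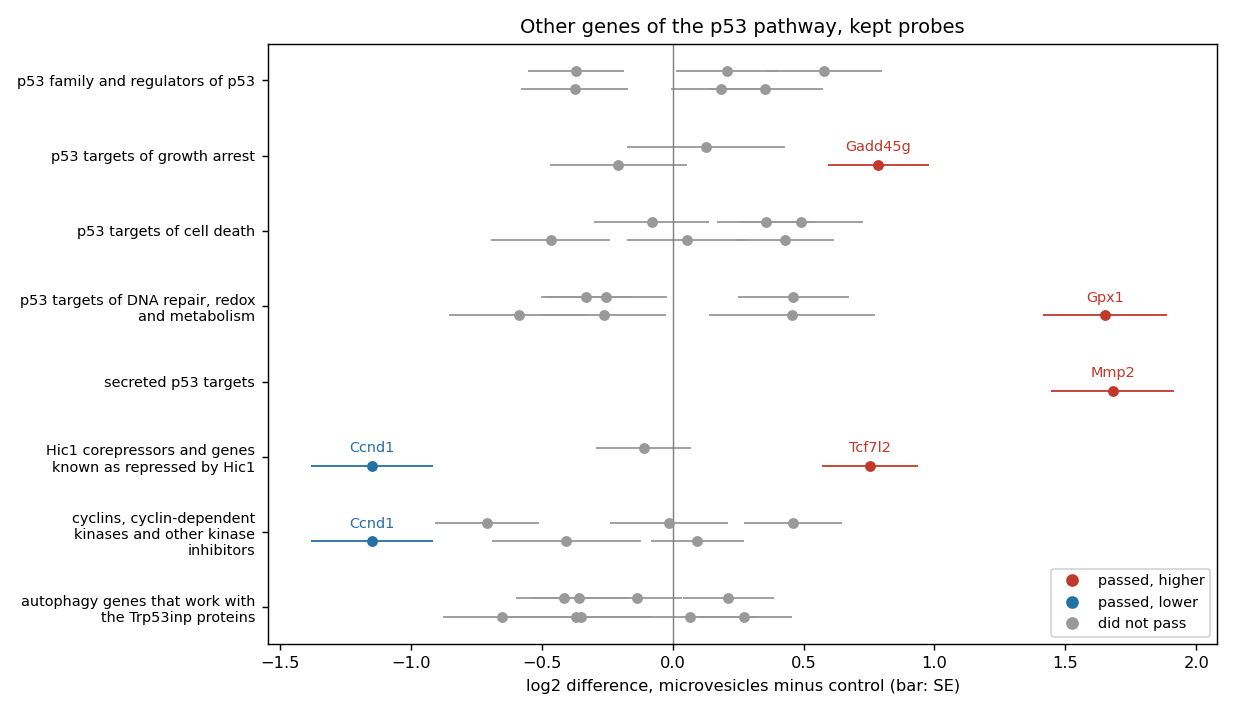
Log2 difference, microvesicles minus control, with its SE, of the kept genes of the 8 other p53 pathway lists, red where a gene passed as higher, blue where it passed as lower and grey where it did not pass. Gpx1, Mmp2, Gadd45g and Tcf7l2 lie right of 0 and Ccnd1, which stands in 2 lists, lies left.

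Among cyclins, their kinases and the other kinase inhibitors, Ccnd1 fell. It encodes cyclin D1, which drives cells into the cycle and whose kinases p21 binds, and it is also among the genes reported as repressed by HIC1 in human cells. Its raw signals were 57.4 and 47.5 with microvesicles and 98.1 and 118.4 in controls, and the normalized means were 4.99 ± 0.23 with microvesicles and 6.14 ± 0.37 in controls (SD, n = 2 each). The log2 difference was -1.15 (SE 0.23, limma adjusted p = 0.0292). Its 2 other kept probes passed as well, at -0.97 (adjusted p = 0.0188) and -1.19 (adjusted p = 0.0326, detected on 1 of the 2 microvesicle arrays). So Ccnd1 was lower on all 3 of its kept probes, and the first gave -1.53 to -0.76 over all settings tried. The other 5 kept members did not pass. Cdkn2c, which encodes the kinase inhibitor p18, was at -0.71 (adjusted p = 0.0729, detected on 1 microvesicle array), and Tfdp1, which encodes a partner of the E2F factors, at 0.46 (adjusted p = 0.174), while Ccna2, Ccnb2, Ccne1 and Cdkn1b were detected on no array. Cdkn2a, whose locus the line lacks, was also detected on none.

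Of the corepressors, partners and repressed genes of Hic1, 3 of 13 on the array were kept. Tcf7l2, a transcription factor of the Wnt pathway that HIC1 binds in human cells, passed as higher, with 6.69 ± 0.10 with microvesicles and 5.94 ± 0.14 in controls (SD, n = 2 each, log2 difference 0.75, limma adjusted p = 0.0476), but stood at -0.01 with the medians of all probes aligned. It did not pass when kept-probe medians were aligned (0.44, adjusted p = 0.395) or in the submitters' processed values (0.73, adjusted p = 0.0587), and its 2 other probes were not detected. Ccnd1 was the other that passed, and Mta1 was at -0.11. Sirt1, the deacetylase gene best known as repressed by HIC1 in human cells, was not detected on any array, and neither were Ctbp1, Ackr3, Efna1 and Epha2.

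Among other p53 targets of growth arrest, Gadd45g, a relative of Gadd45a, rose, with 5.48 ± 0.23 with microvesicles and 4.69 ± 0.07 in controls (SD, n = 2 each, log2 difference 0.79, limma adjusted p = 0.0484). It did not pass without background correction (0.46, adjusted p = 0.0708) or when kept-probe medians were aligned (0.81, adjusted p = 0.0663). Its other probe was detected on no array. Btg1 (0.13) and Prkab1 (-0.21) were the only other kept members, and Gadd45b, Btg2, Sfn and Zmat3 were not detected. Among targets of DNA repair, redox and metabolism, Gpx1, which encodes a selenium-dependent glutathione peroxidase, rose by 1.65 (SE 0.24, limma adjusted p = 0.00806). Its normalized means were 11.50 ± 0.26 with microvesicles and 9.85 ± 0.37 in controls (SD, n = 2 each), and in raw signal the groups overlapped, at 2797 and 1502 with microvesicles and 658.6 and 2022 in controls. The other 6 kept members did not pass, with Tsc2 at -0.59 and Ddb2, a damage recognition gene, at 0.46. Mmp2, a gelatinase gene, was the 1 kept member of 7 secreted targets on the array and rose by 1.68 (limma adjusted p = 0.00785).

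No target of cell death passed, of 6 kept. Siva1 was at 0.49 and Apaf1, which encodes the scaffold of the apoptosome, at -0.47 (limma adjusted p = 0.242 and 0.25), while Pmaip1 was at 0.06 and Bbc3, Bid and Bak1 were not detected. Nor did any of 6 kept regulators of p53, where Trp53bp1 was at 0.58 (adjusted p = 0.159) and Ep300 at -0.37 (adjusted p = 0.298), and Mdm4, Atm, Chek1 and Chek2 were not detected. In the autophagy list, which holds the partners of the Trp53inp proteins, 9 were kept and none passed. Wipi1 was at -0.65 (adjusted p = 0.129) and Wipi2 at -0.41 (adjusted p = 0.21), and of the genes of the LC3 and GABARAP proteins that TRP53INP2 binds, Map1lc3a was at 0.21 and Gabarapl1 at 0.27.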

How the data were processed

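Illumina bead arrays were run on amplified, Cy3-labelled total RNA of 4 samples. BeadStudio 3.3 is the software listed in the notes of the submitters. The deposited intensity is mean bead brightness for each probe, neither background-subtracted nor normalized. The deposited detection p-value compares it with negative controls. The deposited bead standard error is a signal on the same scale, and bead numbers were deposited as well. The deposited processed intensities are background-subtracted, and the sources used here do not give their normalization. Differences between arrays in them and in the values computed here correlated with r from 0.991 to 0.996 across the kept probes, which are not independent replicates.

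Signals were corrected and quantile normalized by neqc of limma 3.58.1 (R 4.3.3), with an offset of 16 and negative control parameters inferred from the detection p-values. Of 25697 probes, 3762 were kept, those with detection p under 0.05 on each array of microvesicles, of control or of both. Groups were compared over all kept probes by lmFit and eBayes without covariates, two-sided and with Benjamini-Hochberg adjustment. The script was tested on simulated data. The platform annotation gave 1 symbol for 23978 probes and none for 1719. The genes, the lists and the alternatives were chosen with earlier results of these data known. List genes were read by their kept probe with the highest mean signal. Where a list gene had no kept probe, its probe with the highest mean signal was read. Statements that such a gene was not detected rest on that 1 probe. From each list up to 2 genes that passed in each direction were named, or else the 2 with the largest absolute difference, and other names were added after their values were seen. Samples of the same replicate number had deviations from the group means that correlated at -0.13 across the kept probes. With 2 arrays a group, this cannot show whether the numbers pair the samples. With 4 arrays in all, precision is limited by their number.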

Additional observations from a re-analysis of the deposited data

How the results depend on the processing

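The reported fit (limma) called 284 probes changed, 129 higher and 155 lower. Aligning the medians of all probes left 0 changed, 0 higher and 0 lower, with 398 at an unadjusted p under 0.05, and it moved the median over kept probes to -0.39, against -0.06. Testing every probe gave 29 changed (14 higher, 15 lower), over more probes. Trend and robust estimation together gave 593 (261 higher, 332 lower). When kept-probe medians were aligned, 76 were higher and 277 lower, 21.5% higher against 45.4%. With 1 array left out, the count was between 0 and 10, with 0 to 9 higher and 0 to 1 lower, and the lone sample of a group was then assumed to vary like the other group. Of the 8 kept probes of the p53 pathway genes, 2 were called higher and 1 lower. These counts were 0 and 0 after all-probe medians were aligned, 1 and 0 on testing every probe, and 0 to 1 and 0 with 1 array left out. Without background correction 1 was called higher, and Trp53inp2 was not. Of the other pathway genes, 4 were higher and 1 lower. These counts were 0 and 0 after all-probe medians were aligned, on testing every probe, and with any 1 array left out. They were 2 and 2 when kept-probe medians were aligned, and trend and robust estimation gave 3 lower. Tcf7l2 turned to -0.0075 after all-probe medians were aligned. With the replicate number as a block, 313 probes were changed and Tcf7l2 did not pass (adjusted p = 0.0506), and the block changed no other call among the 8 probes and the 5 pathway genes that passed. A crossed block, chosen after seeing the data, gave 396. The causes of these changes were not tested. Of 104 log2 differences of the 8 probes under other settings, 10 changed sign, all of Mdm2, Ccng1 or Gadd45a. The 104 include settings of filter, variance model and block, under which a log2 difference cannot change, so they overstate how stable the signs were. Dim signal limits what can be said of the 8 probes that were not kept.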
